A study of Mus musculus with 24 samples.

Results

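A set of 9 genes that regulate the fibre type of skeletal muscle, Sox6, Eya1, Tead1, Vgll2, Mef2c, Nfatc1, Rcan1, Ppargc1a and Esrrg, was followed in mouse muscle with a conditional knockout of nebulin (Neb), the giant protein that lies along the thin filament of the sarcomere. They were taken by symbol from probe sets annotated to exactly 1 gene, with the brightest probe set over all arrays kept for each gene, and make up 9 of 19938 genes on the array. All 9 passed the filter on dim genes that left 15999 genes for testing, and each lay above the dim limit on all 24 arrays. The 4 groups compared, each with 6 arrays from male mice aged 40 to 42 days, were quadriceps cKO, quadriceps control, soleus cKO and soleus control. Every mouse, controls included, was homozygous for a conditional nebulin allele with 1219S6/SvEvTac and C57BL/6J both in its mixed background. The cKO mice also carried 1 copy of MCK-Cre, a Cre recombinase driven by the muscle creatine kinase promoter, which the controls lacked, so that the presence of Cre and the loss of nebulin cannot be told apart. The promoter is one of muscle, and other cells of the tissue are not its target. The series text calls the arrays of a group biological replicates and describes the cKO quadriceps as clearly smaller than that of controls, and the cKO soleus as not significantly smaller.

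Skeletal muscle holds slow, oxidative fibres and fast, glycolytic fibres, which express different myosins, troponins and calcium pumps. In the mouse, Sox6 and Eya1 with the sine oculis homeobox factors favour fast fibre genes, whereas calcineurin acting on NFAT and MEF2 factors, and Ppargc1a with the nuclear receptor Esrrg, favour slow or oxidative genes. Tead1 and its cofactor Vgll2 act on MCAT elements of muscle gene promoters, and Rcan1 is both a target and an inhibitor of calcineurin.

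Levels below are log2 of the deposited intensity of a probe set, and a change is a difference of group means on that scale. Differences were tested with limma over all 15999 genes, and a gene was called when its adjusted p lay under 0.05. Neb, the targeted gene, had a mean level of 10.84 ± 0.23 in quadriceps cKO and 12.29 ± 0.17 in quadriceps control (SD, n = 6 each). Its level was 11.24 ± 0.20 in soleus cKO and 12.38 ± 0.21 in soleus control. Whether the probe set covers the deleted exons is not given in the sources used here, so these values check the level of the transcript and not the deletion itself. The groups did not overlap in either muscle, and the limma adjusted p was 1.40e-10 in quadriceps and 2.27e-08 in soleus. The muscle labels held against fibre genes: all 12 slow fibre genes of a list were lower in quadriceps control than in soleus control, and 14 of 16 fast fibre genes were higher. Arrays of a group correlated between 0.963 and 0.993 over the 15999 genes tested, and no array was a copy of another.

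Markers of other cells moved with genotype, where 40.0% of all genes were called in quadriceps and 23.1% in soleus. Of 7 macrophage markers 6 were higher in cKO in each muscle, and their summed level spanned 9.83 to 10.14 in quadriceps cKO, 8.69 to 9.47 in quadriceps control, 9.33 to 9.77 in soleus cKO and 8.66 to 9.05 in soleus control. Satellite cell markers were higher for 5 of 6 genes in quadriceps and 3 of 6 in soleus, with sums of 9.32 to 9.61 in quadriceps cKO, 8.85 to 9.21 in quadriceps control, 9.41 to 9.65 in soleus cKO and 8.75 to 9.28 in soleus control. Of 8 endothelial markers none passed the test in quadriceps and 6 were lower in soleus cKO (3 with arrays centred on their median), where the sum was 10.80 to 11.04, against 11.19 to 11.82 in soleus control. The sum in quadriceps was 10.70 to 11.16 in cKO and 10.81 to 11.58 in control. Fibro-adipogenic progenitor markers were higher for 4 and lower for 1 of 6 in quadriceps, with sums of 12.45 to 12.56 in cKO and 12.04 to 12.43 in control, and higher for 4 of 6 in soleus, with sums of 12.21 to 12.58 in cKO and 12.13 to 12.32 in control. Of 6 pericyte and smooth muscle markers 1 was higher and 1 lower in quadriceps cKO, with sums of 11.66 to 11.77, against 11.54 to 12.12 in quadriceps control. In soleus cKO 1 was higher and 4 were lower, with sums of 11.63 to 11.74, against 11.86 to 12.21 in soleus control. Adipocyte markers were higher for 3 of 5 in quadriceps cKO and for 0 in soleus cKO, tendon markers higher for 1 and lower for 1 of 6 in quadriceps cKO and higher for 1 and lower for 4 in soleus cKO, and of 4 Schwann cell markers 1 was lower in quadriceps cKO. No marker of these lists lay below the dim limit on all arrays of any group. Of the 6 muscle fibre markers 2 were higher and 2 lower in quadriceps cKO, and 1 was higher and 0 lower in soleus cKO. They summed to 14.94 to 15.08 in quadriceps cKO, 14.81 to 15.01 in quadriceps control, 15.07 to 15.16 in soleus cKO and 14.97 to 15.14 in soleus control. The part of these cells in the changes of the 9 genes was not tested, and fewer cells of a type and less RNA per cell cannot be told apart in whole muscle.

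Sox6 and Eya1 fell and Rcan1 rose in cKO muscle, in both quadriceps and soleus. Ppargc1a fell in soleus, and Esrrg and Mef2c rose in quadriceps. The soleus call of Rcan1 and the quadriceps call of Mef2c were lost without certain single arrays and under another scaling, as given below. In quadriceps 5 of the 9 genes were called, 3 higher and 2 lower, where 40.0% of all genes were called (22.3% higher and 17.7% lower). In soleus 4 were called, 1 higher and 3 lower, where 23.1% of all genes were called (13.2% higher and 9.94% lower). With arrays centred on their 75th percentile the quadriceps count was 2 higher and 3 lower, and after quantile normalization 3 higher and 3 lower in quadriceps and 0 higher and 3 lower in soleus. Being called was thus common on the array, and neither count says anything particular of the 9 genes. In each comparison 3 of the 9 genes had groups that did not overlap, Sox6, Eya1 and Rcan1 in quadriceps and Sox6, Eya1 and Ppargc1a in soleus, against 16.2% of all genes in quadriceps and 12.8% in soleus. The median change of the 9 genes was 0.12 in quadriceps and -0.20 in soleus, and that of all genes -0.01 and -0.02.

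**Figure D1:**
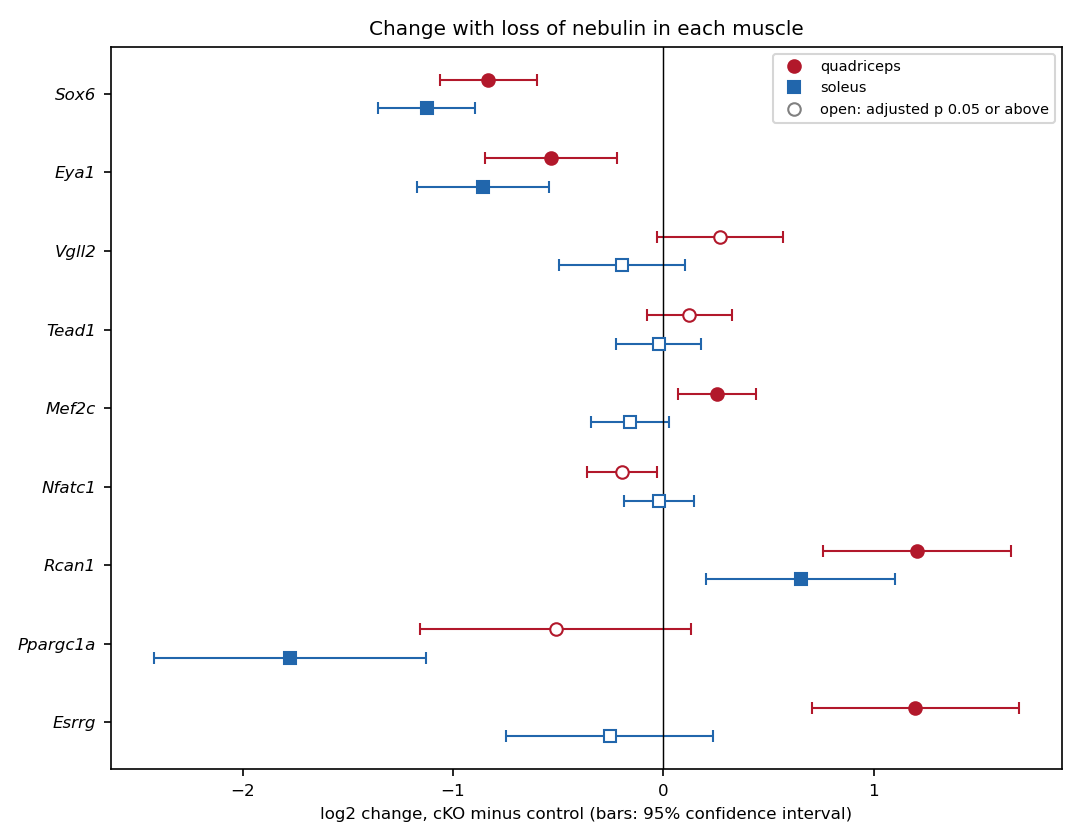
Log2 change, cKO minus control, of the 9 regulators in quadriceps (red circles) and soleus (blue squares), with 95% confidence intervals from limma; open symbols have an adjusted p of 0.05 or above. Sox6 and Eya1 lie left of 0 and Rcan1 right of 0 in both muscles, Ppargc1a is farthest left in soleus at -1.78, and the Esrrg intervals of the 2 muscles do not meet.

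Sox6 (chr7:115470872-116040776, mm10, the build of all positions given), an SRY-box factor that represses slow fibre genes in fast fibres of the mouse, had the smallest p of the 9 genes in both muscles. Its lowest, median and highest levels were 7.65, 8.0 and 8.17 in quadriceps cKO, against 8.63, 8.82 and 8.93 in quadriceps control. They were 6.59, 6.67 and 6.82 in soleus cKO, against 7.17, 7.87 and 8.14 in soleus control. In neither muscle did a cKO array reach the lowest control. The change was -0.83 (SE 0.11, a 1.78-fold lower level, limma adjusted p = 1.37e-06) in quadriceps and -1.12 (SE 0.11, 2.18-fold lower, limma adjusted p = 2.21e-08) in soleus. The difference between these changes was 0.29 (95% confidence interval -0.03 to 0.62) and did not pass the test (limma adjusted p = 0.240). It passed without soleus control 1, the lowest soleus control at 7.17, at 0.42 with a limma adjusted p of 0.0167. Quadriceps cKO and soleus control overlapped, with means of 7.96 ± 0.18 and 7.80 ± 0.34 (SD, n = 6 each) and a limma adjusted p of 0.221.

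Eya1 (chr1:14168953-14311035), a phosphatase and coactivator that works with sine oculis homeobox factors, fell in both muscles as well. Its lowest, median and highest levels were 6.84, 7.02 and 7.2 in quadriceps cKO, against 7.38, 7.56 and 7.75 in quadriceps control. In soleus cKO they were 6.47, 6.58 and 6.64, against 6.80, 7.30 and 8.19 in soleus control. The groups did not overlap in either muscle, although the soleus controls spread over 1.40 log2 units and the soleus cKO arrays over only 0.18. Soleus controls 2 and 3 were the high ones, at 8.19 and 7.95, and soleus control 1 the low one. The change was -0.53 (SE 0.15, 1.45-fold lower, limma adjusted p = 0.00709) in quadriceps and -0.86 (SE 0.15, 1.81-fold lower, limma adjusted p = 0.000124) in soleus. Leaving out each array in turn gave -0.57 to -0.49 in quadriceps and -0.98 to -0.70 in soleus, with the call kept each time. The difference between the muscles, 0.32 (95% confidence interval -0.12 to 0.77), did not pass the test (limma adjusted p = 0.361).

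Tead1 (chr7:112679356-112906784), a TEA-domain factor that binds MCAT elements, differed between the muscles and not detectably between genotypes. The lowest, median and highest Tead1 levels were 9.63, 9.74 and 9.91 in quadriceps cKO, against 9.32, 9.62 and 10.07 in quadriceps control. In soleus they were 10.27, 10.33 and 10.52 in cKO, against 10.28, 10.33 and 10.59 in control. Genotypes overlapped in both muscles, while all 12 quadriceps arrays lay below all 12 soleus arrays. The change with genotype was 0.12 (95% confidence interval -0.08 to 0.33, limma adjusted p = 0.323) in quadriceps and -0.02 (-0.23 to 0.18, limma adjusted p = 0.902) in soleus. A second probe set of Tead1 gave the same calls.

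Vgll2 (chr10:52022502-52028471), a TEAD cofactor largely restricted to skeletal muscle, had lowest, median and highest levels of 7.87, 8.41 and 8.69 in quadriceps cKO, against 7.69, 8.08 and 8.46 in quadriceps control. The levels were 8.42, 8.66 and 8.91 in soleus cKO, against 8.37, 8.99 and 9.17 in soleus control. Genotypes overlapped in both muscles. The change was 0.27 (95% confidence interval -0.03 to 0.57, limma adjusted p = 0.140) in quadriceps and -0.20 (-0.49 to 0.10, limma adjusted p = 0.371) in soleus. Quadriceps cKO 5 was the lowest of its group at 7.87, and without it the quadriceps change was 0.37 with a limma adjusted p of 0.0398.

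Mef2c (chr13:83504017-83667079), a MADS-box factor that class II histone deacetylases hold in check, changed by a small amount. Levels (lowest, median and highest) were 11.08, 11.18 and 11.30 in quadriceps cKO, against 10.49, 10.98 and 11.24 in quadriceps control. In soleus cKO they were 10.85, 11.04 and 11.17, against 11.02, 11.19 and 11.28 in soleus control. The groups overlapped in both muscles, and quadriceps control 4 was the lowest of all 24 arrays. The quadriceps change was 0.26 (SE 0.09, 1.20-fold, limma adjusted p = 0.0251) and the soleus change -0.16 (95% confidence interval -0.34 to 0.03, limma adjusted p = 0.234). The difference between the muscles was 0.41 (SE 0.13, limma adjusted p = 0.0332). Without quadriceps control 4 the quadriceps change of Mef2c was 0.17 and lost its call, as it did without quadriceps control 5 or quadriceps cKO 1 (limma adjusted p 0.0574 to 0.0776). It also lost the call with arrays centred on their 75th percentile (0.17, limma adjusted p = 0.103). The call of the difference was lost without any of 7 arrays (limma adjusted p 0.0504 to 0.0631) and with arrays centred on their median (0.0730) or 75th percentile (0.0504).

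Nfatc1, an NFAT factor that calcineurin sends to the nucleus and that favours slow fibre genes in the mouse, was not called in either muscle. Its lowest, median and highest levels were 6.89, 7.17 and 7.24 in quadriceps cKO, against 7.12, 7.29 and 7.56 in quadriceps control. The levels were 6.96, 7.14 and 7.32 in soleus cKO, against 7.08, 7.17 and 7.26 in soleus control. All groups overlapped. The change was -0.20 (95% confidence interval -0.36 to -0.03, limma adjusted p = 0.0582) in quadriceps and -0.02 (-0.19 to 0.15, limma adjusted p = 0.895) in soleus. The quadriceps value passed with other scalings of the arrays, at -0.28 (limma adjusted p = 0.00603) with arrays centred on their 75th percentile and -0.27 (limma adjusted p = 0.00731) after quantile normalization. It also passed without quadriceps control 2, quadriceps control 4 or quadriceps cKO 4 (limma adjusted p 0.0330 to 0.0426).

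Rcan1 (chr16:92391951-92466169), the regulator of calcineurin, has 2 annotated starts, and the probe set lists transcripts of both, so that the array does not separate them. The downstream start is known for its response to calcineurin and NFAT. The 250 bases before each start are shown because this gene rose in both muscles. They were read from RefSeq on GRCm38.p6, with matches of the NFAT core GGAAA on either strand in capitals. The upstream window, chr16:92466170-92466419 on the minus strand, held 0 matches, and the downstream window, chr16:92400079-92400328 on the minus strand, held 3:
Rcan1 upstream start: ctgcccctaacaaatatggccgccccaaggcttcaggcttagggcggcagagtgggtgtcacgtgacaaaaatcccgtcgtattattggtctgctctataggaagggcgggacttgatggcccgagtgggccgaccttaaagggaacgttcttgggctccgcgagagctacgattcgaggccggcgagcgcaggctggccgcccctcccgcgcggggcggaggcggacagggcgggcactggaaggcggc
Rcan1 downstream start: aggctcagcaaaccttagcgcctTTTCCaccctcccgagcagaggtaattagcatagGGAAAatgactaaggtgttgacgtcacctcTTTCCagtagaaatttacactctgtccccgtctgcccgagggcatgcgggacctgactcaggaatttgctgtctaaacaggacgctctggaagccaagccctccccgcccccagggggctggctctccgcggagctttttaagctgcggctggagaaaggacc
Of 32851 promoter windows of this length, 55.6% held at least 1 such match and 6.39% held 3 or more, so the letters themselves are common. The downstream window also held 1 match of the cyclic AMP response element TGACGTCA, present in 1.55% of windows. Motifs were chosen after the values were seen, and a match describes letters only.

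Rcan1 had lowest, median and highest levels of 9.16, 9.71 and 9.89 in quadriceps cKO, against 7.87, 8.28 and 9.05 in quadriceps control. Its levels were 9.71, 10.001 and 10.33 in soleus cKO, against 8.55, 9.65 and 9.84 in soleus control. In quadriceps no cKO array fell among the controls, whereas in soleus 3 controls, numbers 1 to 3 at 9.84, 9.81 and 9.80, stood above the lowest cKO array, number 5 at 9.71. The change was 1.21 (SE 0.22, 2.31-fold higher, limma adjusted p = 7.99e-05) in quadriceps and 0.65 (SE 0.22, 1.57-fold higher, limma adjusted p = 0.0293) in soleus. The soleus call of Rcan1 was lost without soleus control 5, soleus control 6, soleus cKO 1, soleus cKO 2 or soleus cKO 4 (limma adjusted p 0.050 to 0.0949) and after quantile normalization (0.0629). The difference between the muscles, 0.56 (95% confidence interval -0.08 to 1.19), did not pass the test (limma adjusted p = 0.254). It passed with the array number as a fixed replicate block (limma adjusted p = 0.0387), which also joins cKO and control mice of a number.

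Ppargc1a (chr5:51454249-52115853) encodes PGC-1 alpha, the coactivator of mitochondrial genes, and showed the largest change of the 9 genes. From lowest through median to highest, it stood at 8.0, 8.18 and 8.52 in quadriceps cKO, against 8.33, 8.66 and 9.15 in quadriceps control. In soleus cKO the levels were 7.29, 7.83 and 8.23, against 8.24, 9.35 and 10.96 in soleus control. The soleus groups did not overlap, but the highest cKO array and the lowest control, number 1, nearly touched. Soleus controls 2 and 3 stood highest at 10.65 and 10.96, and the quadriceps groups overlapped. The soleus change was -1.78 (SE 0.31, 3.42-fold lower, limma adjusted p = 0.00011), and the quadriceps change -0.51 (95% confidence interval -1.16 to 0.13, limma adjusted p = 0.196). SDs were 0.21 in quadriceps cKO, 0.37 in quadriceps control, 0.40 in soleus cKO and 1.09 in soleus control. A single spread over the 4 groups was fitted, so the quadriceps interval includes the scatter of the soleus controls. With the quadriceps arrays fitted alone, the quadriceps change passed (limma adjusted p = 0.0146). Leaving out each array in turn gave -2.04 to -1.49 in soleus with the call kept. The second probe set of Ppargc1a gave -1.93 in soleus (limma adjusted p = 0.000292) and -0.62 in quadriceps (0.186). The difference between the muscles was 1.26 (95% confidence interval 0.35 to 2.18, limma adjusted p = 0.0612), a value just outside the threshold. With the 2 muscles of an animal treated as a random replicate block it passed, with a limma adjusted p of 0.0239. A fixed block of array number gave a limma adjusted p of 0.00882. That block also joins same-numbered cKO and control mice, which were not taken as paired. The difference passed as well without soleus control 1 or soleus control 6 (limma adjusted p 0.0104 and 0.0348). The endothelial and pericyte lists above fell in the same muscle, and their part in the Ppargc1a value was not tested.

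Esrrg (chr1:187608510-188214885) encodes the nuclear receptor ERR gamma, which drives oxidative genes and is most abundant in slow muscle. Its lowest, median and highest levels were 7.47, 8.47 and 8.80 in quadriceps cKO, against 6.76, 6.89 and 7.63 in quadriceps control. In soleus cKO they were 8.03, 8.75 and 9.22, against 8.27, 9.20 and 9.38 in soleus control. In quadriceps only cKO 5, at 7.47, fell among the controls, of which numbers 1 and 6 stood apart at 7.63 and 7.61. Esrrg changed by 1.20 (SE 0.24, 2.30-fold higher, limma adjusted p = 0.000259) in quadriceps and by -0.25 (95% confidence interval -0.75 to 0.24, limma adjusted p = 0.492) in soleus. The difference between the muscles was 1.45 (SE 0.34, limma adjusted p = 0.00537), and 1.32 to 1.62 with each array left out in turn, called each time.

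Of the 9 genes, Esrrg and Mef2c were called for the difference between muscles, both higher, where 12.3% of all genes were called (7.39% higher and 4.89% lower). The Mef2c call did not hold in every alternative, as given above. With same-numbered muscles taken as 1 animal, Ppargc1a passed too with animal as a random replicate block (limma adjusted p = 0.0239). With number as a fixed replicate block, Ppargc1a (limma adjusted p = 0.00882) and Rcan1 (0.0387) passed, 4 genes in all. The fixed block also joins cKO and control mice of a number, which were not taken as paired. Among the genes that did not pass without a block, the widest intervals of the difference were those of Ppargc1a (0.35 to 2.18), Rcan1 (-0.08 to 1.19) and Eya1 (-0.12 to 0.77), which leave room for sizeable differences.

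Windows of 250 bases before the only Ppargc1a start matched and the first of 4 Esrrg starts matched are shown. They were chosen because these genes changed most in soleus and differed most between the muscles. Both windows lie inside the gene spans given above, which extend farther upstream. Any start upstream of those shown was not among the windows matched. In Ppargc1a (chr5:51567726-51567975, minus strand) capitals mark the only match of TGACG, the core of the cyclic AMP response element, read on the opposite strand. In Esrrg (chr1:187608756-187609005, plus strand) they mark the only match of the MEF2 element, searched as CTA and TAG with any 4 bases between, which overlaps a TATAAA match on the opposite strand:
Ppargc1a start: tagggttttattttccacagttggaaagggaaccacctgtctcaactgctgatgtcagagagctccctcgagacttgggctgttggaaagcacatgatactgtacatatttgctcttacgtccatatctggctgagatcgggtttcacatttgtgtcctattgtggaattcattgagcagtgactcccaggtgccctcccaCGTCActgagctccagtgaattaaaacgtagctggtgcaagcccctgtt
Esrrg first start: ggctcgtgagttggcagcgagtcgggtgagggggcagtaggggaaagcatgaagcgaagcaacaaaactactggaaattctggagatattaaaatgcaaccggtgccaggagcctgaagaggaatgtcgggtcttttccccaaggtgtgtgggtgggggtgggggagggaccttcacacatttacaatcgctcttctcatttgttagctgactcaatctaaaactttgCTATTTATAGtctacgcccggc
TGACG was present in 17.8% of the 32851 windows, the MEF2 element in 3.2% and TATAAA in 12.4%. The other motifs searched on both strands were CATTCC (12.6% of windows), CANNTG (66.2%), TCAGGTT (3.49%), AAGGTCA (4.08%) and ACAAT (27.7%). GGAAA occurred 3 times in each of these windows too, as often as before the downstream Rcan1 start. Promoter windows were matched for 6 of the 9 genes, Sox6, Mef2c, Rcan1, Ppargc1a, Esrrg and Vgll2, with 17 windows in all.

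**Figure D2:**
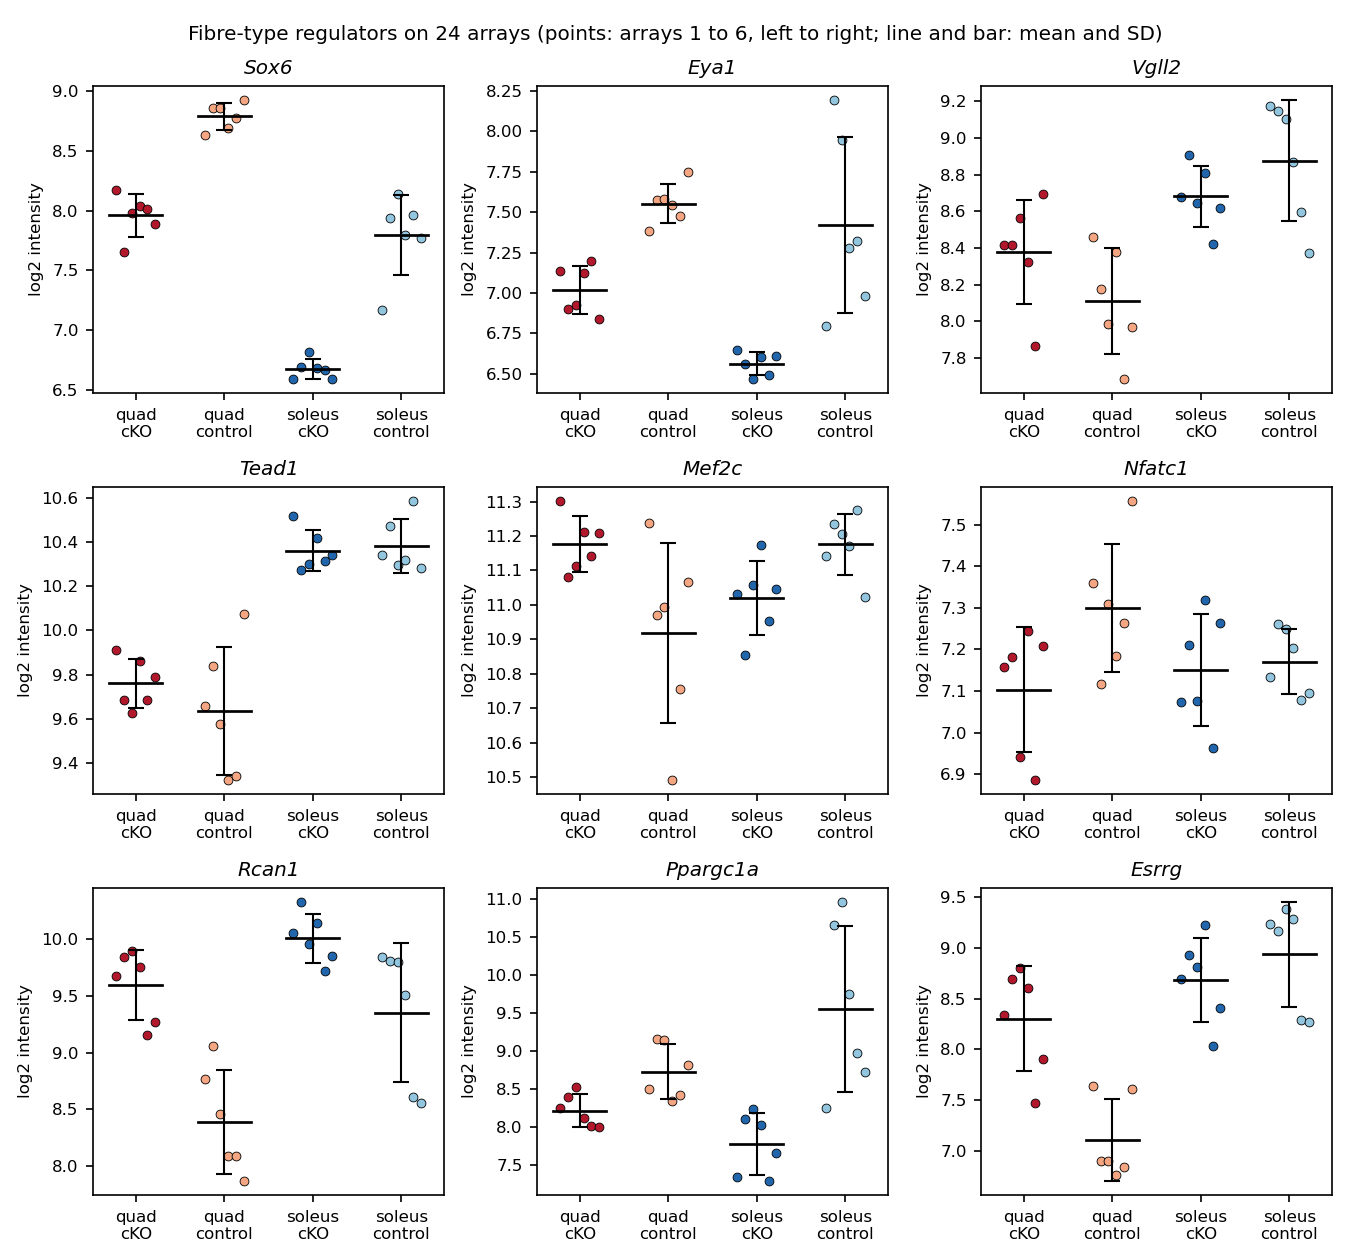
Log2 intensity of the 9 regulators on all 24 arrays, in quadriceps cKO, quadriceps control, soleus cKO and soleus control; points are arrays 1 to 6 from left to right, lines the mean and bars the SD. Scales differ between panels. Sox6 cKO arrays lie below all controls of their muscle, and Tead1 separates the muscles. Soleus control has the largest SD of the 4 groups for Sox6, Eya1, Rcan1, Ppargc1a and Vgll2.

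Between the muscles, 7 of the 9 genes differed in control mice, where 33.5% of all genes were called (18.3% higher and 15.2% lower in quadriceps). The comparisons of muscles here and in cKO mice below took arrays as independent, although same-numbered muscles were assumed to share an animal. With animal as a random replicate block, 6308 of all genes were called between control muscles, in place of 5362. Between cKO muscles it was 5817, in place of 4614. Sox6 was higher in quadriceps control than in soleus control, by 1.0 (SE 0.11, 1.99-fold, limma adjusted p = 1.04e-07). Lower in quadriceps control were Esrrg at -1.83 (SE 0.24, 3.57-fold), Rcan1 at -0.96 (SE 0.22), Ppargc1a at -0.82 (SE 0.31), Vgll2 at -0.77 (SE 0.15), Tead1 at -0.75 (SE 0.10) and Mef2c at -0.26 (SE 0.09), with limma adjusted p between 1.19e-06 and 0.0454. Groups did not overlap for Sox6, Tead1 and Esrrg, against 11.7% of all genes. The Ppargc1a and Mef2c calls were the weak ones. That of Ppargc1a was lost without any of 11 arrays (limma adjusted p 0.0501 to 0.151), at -0.60 without soleus control 2 and -0.54 without soleus control 3, and with its second probe set (0.110). That of Mef2c was lost without any of 5 arrays, at -0.17 without quadriceps control 4, and with arrays centred on their median, at -0.15 (limma adjusted p = 0.239). That centring gave 2 of the 9 genes higher and 4 lower in quadriceps control, in place of 1 and 6.

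In cKO mice 3 of the 9 genes differed between the muscles, where 28.8% of all genes were called (16.9% higher and 11.9% lower in quadriceps). Sox6 was higher in quadriceps cKO than in soleus cKO, by 1.29 (SE 0.11, 2.44-fold, limma adjusted p = 3.08e-09). Eya1 was higher by 0.46 (SE 0.15, limma adjusted p = 0.0274), and Tead1 lower, at -0.60 (SE 0.10, limma adjusted p = 6.35e-05). The groups of all 3 did not overlap, against 15.9% of all genes. The Eya1 call was lost without quadriceps cKO 1, quadriceps cKO 4, quadriceps cKO 5 or soleus cKO 3 (limma adjusted p 0.0523 to 0.0629) and in other scalings. Esrrg, which set the muscles apart most in controls, differed by -0.38 (95% confidence interval -0.87 to 0.11, limma adjusted p = 0.227) in cKO mice, and Rcan1 by -0.41 (-0.85 to 0.04, limma adjusted p = 0.157). With array number as a fixed replicate block, Rcan1 (0.0182) and Vgll2 (-0.30, 0.0441) passed too. These 2 sets of muscle differences and the changes above are made of the same 4 groups. The test of whether the muscle gap differs between genotypes is the difference of changes already given, which Esrrg and Mef2c passed. Only Esrrg kept that call in every alternative.

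**Figure D3:**
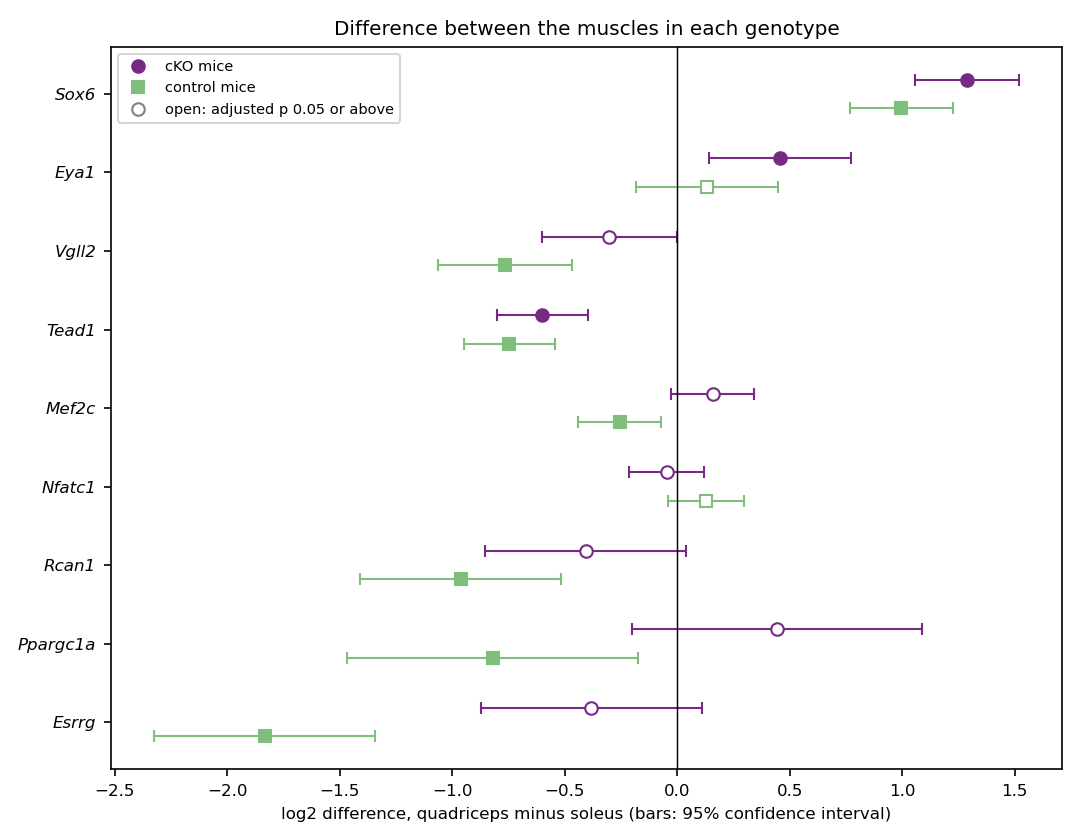
Log2 difference, quadriceps minus soleus, of the 9 regulators in cKO mice (purple circles) and control mice (green squares) with 95% confidence intervals; open symbols have an adjusted p of 0.05 or above. Esrrg lies at -0.38 in cKO and -1.83 in control mice, while Sox6 and Tead1 keep their side in both.

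Set against soleus control, quadriceps cKO was lower for 5 of the 9 genes and higher for 0, where 50.3% of all genes were called (26.2% higher and 24.2% lower). Lower were Ppargc1a at -1.33 (SE 0.31, limma adjusted p = 0.00123), Esrrg at -0.64 (0.0296), Tead1 at -0.62 (1.51e-05), Vgll2 at -0.50 (0.00672) and Eya1 at -0.40 (0.0318). Sox6 differed by 0.16 (95% confidence interval -0.07 to 0.39), Rcan1 by 0.25 (-0.20 to 0.69), Nfatc1 by -0.07 (-0.23 to 0.10) and Mef2c by 0.00 (-0.19 to 0.19). Only the groups of Tead1 did not overlap, against 23.8% of all genes. Over the 4 groups the order of the means was soleus control, soleus cKO, quadriceps cKO, quadriceps control for Tead1, Esrrg and Vgll2, with neighbours that overlapped except soleus cKO and quadriceps cKO for Tead1. Rcan1 ran soleus cKO, quadriceps cKO, soleus control, quadriceps control, with all neighbours overlapping. For Sox6 the order was quadriceps control first, then quadriceps cKO, then soleus control and last soleus cKO, and only the middle neighbours overlapped. Eya1 ran quadriceps control, soleus control, quadriceps cKO, soleus cKO, and only the last step was free of overlap. The neighbours of Ppargc1a, from soleus control through quadriceps control and quadriceps cKO to soleus cKO, all overlapped, as did those of Mef2c and Nfatc1. Eya1 and Esrrg lost this call without soleus control 2 or soleus control 3, among others (limma adjusted p up to 0.115 for Eya1, where it was -0.25 without soleus control 2, and up to 0.0988 for Esrrg), and with arrays centred on their median (0.116 and 0.0641).

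Deviations from the group mean ran with the array number for several genes. Arrays numbered 5, from mice of 42 days, and 6, from mice of 40 days, lay below the mean of their group in all 4 groups for Rcan1, by 0.44 and 0.45 log2 units on average. For Esrrg, number 5 lay below in 4 groups and number 6 in 3, at mean deviations of -0.60 and -0.21, and for Vgll2 number 5 lay below in all 4 at -0.37. Ppargc1a was high in numbers 2 and 3 in all 4 groups, by 0.51 and 0.65. Since each group holds each number, this spread entered every group. Within groups, deviations over the 24 arrays correlated at 0.78 for Eya1 and Ppargc1a, 0.70 for Rcan1 and Vgll2, 0.69 for Tead1 and Mef2c, 0.68 for Eya1 and Sox6 and 0.67 for Rcan1 and Esrrg. These points share animals and arrays and are a description.

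**Figure D4:**
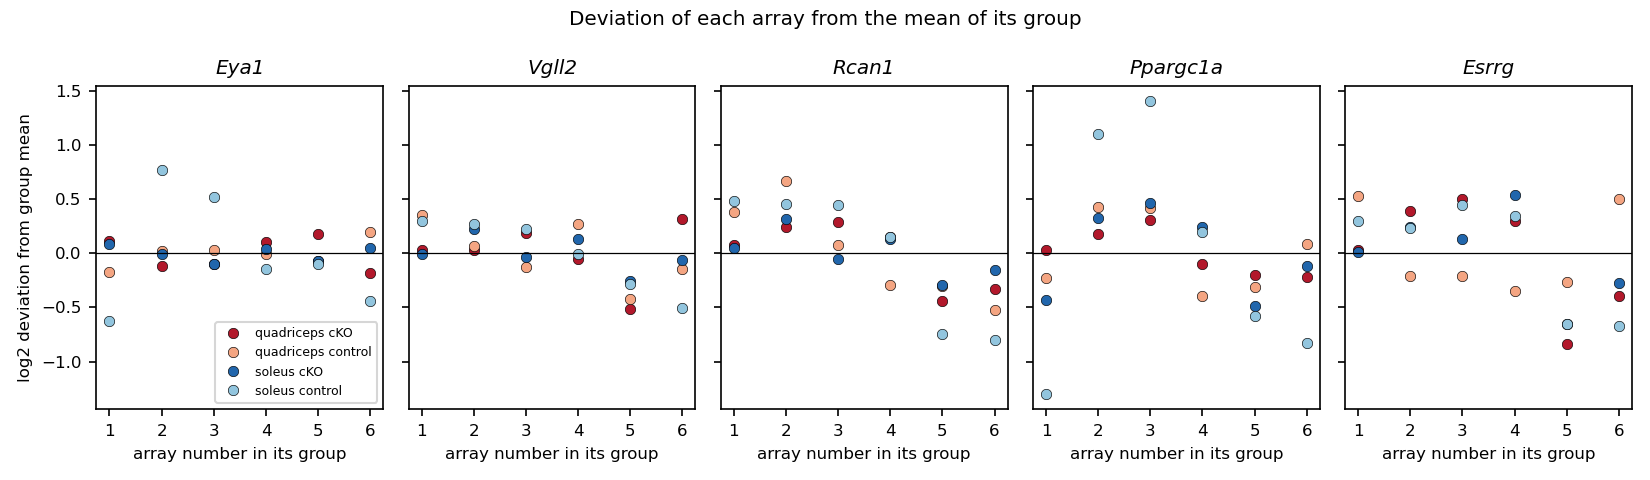
Deviation of each array from the mean of its group, in log2 units, by array number for Eya1, Vgll2, Rcan1, Ppargc1a and Esrrg; colours are the 4 groups. Numbers 5 and 6 lie below 0 in all groups for Rcan1, and numbers 2 and 3 above 0 for Ppargc1a. The point farthest from 0 is a soleus control for Eya1, Rcan1 and Ppargc1a, and quadriceps cKO 5 for Vgll2 and Esrrg.

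Genes of the same families moved in both directions. The counts of this list and of those that follow stand beside 40.0% of all genes called in quadriceps and 23.1% in soleus. A count near these shares says nothing particular of a family. Among 8 other TEAD, VGLL and YAP genes 4 rose in each muscle and 0 fell, with a median change of 0.24 in quadriceps and 0.14 in soleus, while Tead1 and Vgll2 did not pass. The quadriceps count was 3 with 75th percentile centring or quantile normalization. Tead4 rose by 0.72 (SE 0.12) in quadriceps and 0.55 (SE 0.12) in soleus, Tead3 by 0.65 and 0.49 (SE 0.07 each) and Vgll3 by 0.36 and 0.53 (SE 0.10 each). Yap1, a coactivator of TEAD, rose by 0.25 in quadriceps, a call lost in other scalings, and by 0.32 in soleus. Of 2 further SOXD genes, Sox13 fell in soleus (-0.25, lost with arrays centred on their median) and Sox5 changed by -0.01 in quadriceps and -0.13 in soleus, neither passing.

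The list of sine oculis homeobox, EYA and DACH genes held 8 further genes, of which 1 rose and 2 fell in each muscle (2 and 1 in soleus with arrays centred on their median). In quadriceps Six2, a homeobox factor, fell by 0.98 (SE 0.11, limma adjusted p = 3.78e-08), while it changed by -0.14 in soleus without passing. Eya3 rose by 0.49 in quadriceps, and Eya4 by 0.57 in soleus (SE 0.10, limma adjusted p = 0.000123). Dach2, a cofactor of this family, was called lower in both muscles and lay below the dim limit on all 12 cKO arrays, so the size of its change is not exact. None of Eya2, Eya3 and Eya4 was called lower in either muscle, and Eya2 changed by 0.25 in quadriceps and 0.06 in soleus without passing.

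In the MEF2 and class II HDAC list, 2 of 6 genes rose and 1 fell in quadriceps, and 1 fell in soleus (with arrays centred on their median, 1 rose and 0 fell). Hdac4, a deacetylase that represses MEF2 targets, rose by 1.06 (SE 0.12, 2.09-fold, limma adjusted p = 1.61e-07) in quadriceps and changed by 0.33 (limma adjusted p = 0.0568) in soleus, with a difference between muscles of 0.73 (limma adjusted p = 0.00682). Mef2a changed by 0.28 in quadriceps and -0.26 in soleus, with a difference of 0.54 (limma adjusted p = 0.00656); both single changes lost their call in other scalings. Mef2d fell by 0.31 in quadriceps.

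Of 14 other calcineurin and NFAT genes, 4 rose and 6 fell in quadriceps, and 0 rose and 5 fell in soleus, with medians of -0.13 and -0.03, the second turning to 0.01 with arrays centred on their median. Of the calcineurin subunits, Ppp3cb fell by 0.57 (SE 0.08) and Ppp3r1 by 0.51 (SE 0.09) in quadriceps, and Ppp3cc by 0.35 (SE 0.08) in each muscle. Among the NFAT factors Nfat5 rose by 0.80 (SE 0.13) and Nfatc2 by 0.81 (SE 0.20) in quadriceps, while Nfatc3 fell by 0.22 there and by 0.26 in soleus, calls that other scalings removed. Rcan2, the paralog of Rcan1, changed by 0.19 in quadriceps and -0.07 in soleus, neither passing, although it was lower in quadriceps control than in soleus control at -0.94 (SE 0.10). Myoz2 and Myoz1, calcineurin-binding proteins of the Z-disc known from slow and fast fibres, went apart in quadriceps, at 1.35 (SE 0.15) and -0.57 (SE 0.11).

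The PGC-1 and ERR list held 13 further genes, of which 3 rose and 3 fell in quadriceps and 0 rose and 1 fell in soleus. Ppara, a nuclear receptor of fat oxidation, fell by 1.09 (SE 0.20, limma adjusted p = 0.000132) in soleus beside Ppargc1a and by 0.52 in quadriceps. Esrra fell by 0.46 (SE 0.11) in quadriceps, where Esrrg rose, and changed by -0.24 in soleus without passing. Ppargc1b, the paralog of Ppargc1a, changed by 0.04 in quadriceps and 0.03 in soleus, values whose sign other scalings turned. Esrrb was lower in quadriceps control than in soleus control (-1.49, SE 0.16), as Esrrg was, but changed by 0.13 in quadriceps and 0.06 in soleus with genotype, neither passing.

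Among 13 oxidative genes known as targets of PGC-1 or ERR, 9 fell in each muscle and 1 rose in quadriceps, with medians of -0.36 in quadriceps and -0.33 in soleus. Idh3a fell by 0.69 in quadriceps and 1.12 in soleus, Sdhb by 0.37 and 0.53, and Ckmt2 by 0.55 and 0.63 (SE of each at most 0.11). Vegfa, a growth factor that PGC-1 alpha induces in muscle, fell by 1.06 in soleus.

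**Figure D5:**
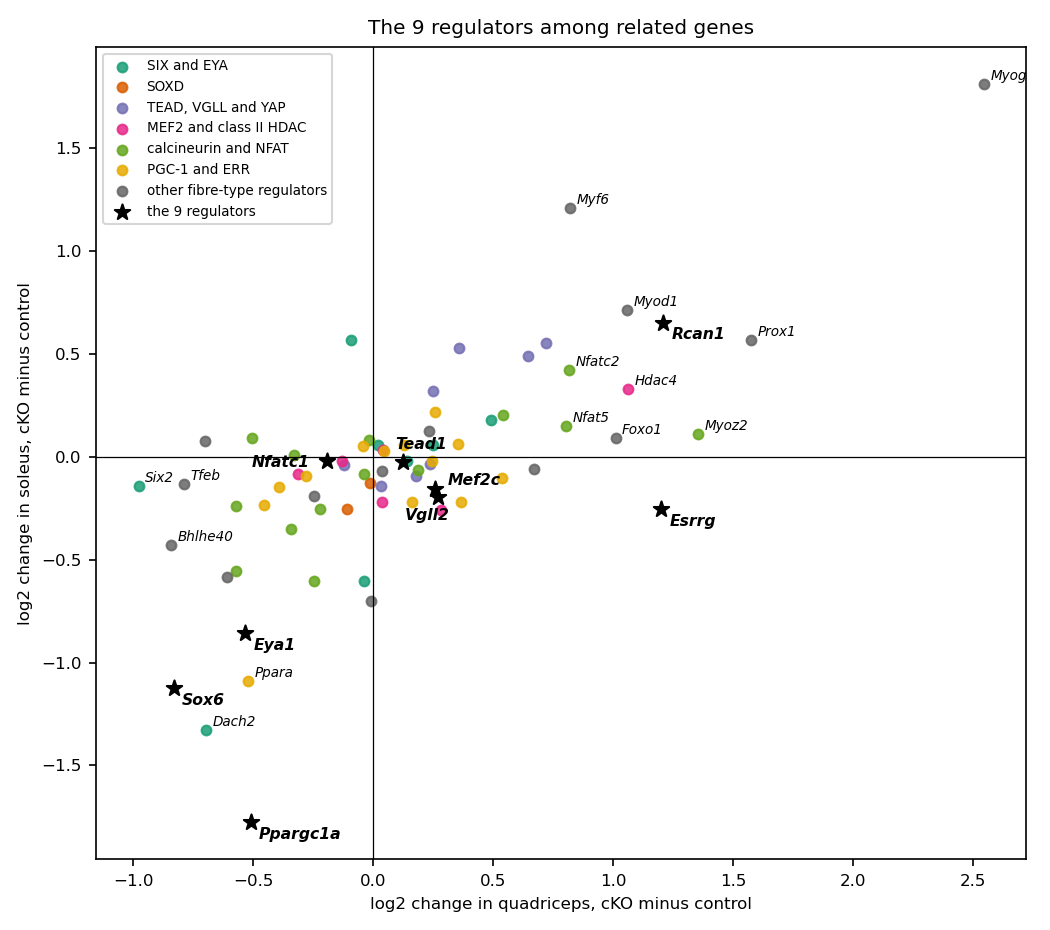
Log2 change, cKO minus control, in quadriceps (horizontal) and soleus (vertical) of the 9 regulators (black stars) and of related genes by list (coloured points), with names for changes beyond 0.75. Rcan1 lies at the upper right (1.21 and 0.65), Sox6 and Eya1 at the lower left, and Esrrg right of 0 but below it in soleus (1.20 and -0.25).

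Of 14 other regulators of fibre type 7 rose and 4 fell in quadriceps and 4 rose and 2 fell in soleus. Prox1, a homeobox factor that favours slow fibres, rose by 1.58 (SE 0.15, limma adjusted p = 7.99e-09) in quadriceps and 0.57 (SE 0.15) in soleus, and like Esrrg it was lower in quadriceps control than in soleus control (-2.18). Maf, a factor that favours the fastest fibres in the mouse, fell by 0.61 in quadriceps and 0.58 in soleus (SE 0.12 each), and like Sox6 it was higher in quadriceps control than in soleus control (1.5). Myog, the myogenin gene, rose by 2.54 in quadriceps and 1.81 in soleus (SE 0.18 each), and Myf6 by 0.82 and 1.21 (SE 0.10 each).

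All 12 slow fibre genes rose in quadriceps cKO, with a median of 1.84, whereas in soleus 3 rose and 1 fell with a median of 0.29. Tnni1, the slow troponin I, rose by 2.53 (SE 0.21) in quadriceps and by 0.81 in soleus, and Casq2, the slow calsequestrin, by 2.17 and 0.90. The summed slow level was 14.76 to 15.15 in quadriceps cKO, 13.18 to 14.15 in quadriceps control, 15.75 to 15.78 in soleus cKO and 15.37 to 15.80 in soleus control. Of 16 fast fibre genes 1 rose and 10 fell in quadriceps and 0 rose and 11 fell in soleus, with medians of -0.32 and -0.58. Pvalb, the calcium buffer of fast fibres, fell by 2.96 in soleus, and Tnni2, the fast troponin I, by 0.52 in quadriceps and 0.91 in soleus. The gene that rose in quadriceps was Myh2, the myosin of fast oxidative fibres, by 1.01. Myoz1 and Myoz2 stand in these lists and in the calcineurin list, so the lists are not independent.

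Genes whose pattern over the 24 arrays was most like that of each regulator, among all genes tested, were named by Pearson's r as a description, since the points share groups, animals and arrays. Sox6 was closest to Mylk4 and Prr33, both at 0.98. Tead1 was closest to Lgi1 and Coro6 (0.95 each), Eya1 to Gpr157 (0.94) and Lpin1 (0.90), and Rcan1 to 6430548M08Rik and Xirp1 (0.93 each). Esrrg was closest to Ampd3 and Slc38a3 (0.89 each), Ppargc1a to Cpeb4 (0.88) and Ppara (0.85), and Mef2c to Ranbp2 (0.88) and Erc1 (0.84). Vgll2 was closest to BC049715 (0.85) and Nrsn2 (0.83). Nfatc1 had the weakest neighbours, Csnk1e at 0.73 and Rpusd2 at 0.72.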

How the data were processed

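Total RNA of quadriceps and soleus from male mice was labelled for Affymetrix arrays, 24 in all. The authors deposited linear intensities made with RMA in Affymetrix Expression Console on mm10, per the submitters' processing notes, with no version given. The intensities were taken to log2 here, without further scaling. Of 35557 probe sets, 21789 had 1 gene symbol, 1621 several and 12147 none listed; the brightest of a gene was kept, giving 19938 genes. Genes above the 30th percentile of an array on at least 6 arrays were tested (15999, with 3939 left out). A model with 4 group means over 24 arrays was fitted with limma 3.58.1 in R 4.3.3, with Benjamini-Hochberg adjustment over all tested genes and calls at 0.05. On simulated data for the quadriceps comparison with 15999 genes, 75% of changes of 0.5 and 100% of changes of 1 log2 unit were recovered. Precision depends on how many arrays a group has and on the spread of each gene. The median SE was 0.10 within a muscle and 0.14 for the difference between muscles. Among the 9 genes the SE within a muscle ran from 0.08 for Nfatc1 to 0.31 for Ppargc1a, with 0.24 for Esrrg and 0.22 for Rcan1. The recovered shares above are 1 value per size of change. Recovery at the SE of any of the 9 genes was not tested.

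The 9 genes, the lists and the tests were chosen with earlier results of these data known. Text names all 9 genes, Neb, up to 4 genes of each list with the smallest p in a comparison, family members of the 9, and the 2 genes most like each by Pearson's r. Some genes of the lists are not reported here. Promoter sequences came from RefSeq on GRCm38.p6.

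Same-numbered quadriceps and soleus arrays of a genotype deviated together (6 of 6 pairs over 0.1). Their correlations were 0.22 to 0.45 in cKO and 0.16 to 0.31 in control. Numbers were therefore assumed to mark 1 animal between muscles, although cKO number 4 carries different ages in the 2 muscles. Same-numbered cKO and control arrays deviated together for some numbers, short of every pair, and were not taken as paired. Their correlations were -0.15 to 0.17 in quadriceps (3 of 6 pairs over 0.1) and 0.041 to 0.32 in soleus (4 of 6). A shared animal and anything else shared by arrays of a number cannot be told apart from these correlations. Alternatives covered array scaling, the dim filter, the probe set, the prior, array weights, both replicate blocks, age, the samples fitted and each array left out; the other probe sets of Tead1 and Ppargc1a were added after seeing the data.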

Additional observations from a re-analysis of the deposited data

Results flagged for a closer look

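The change with genotype differed between the muscles for Esrrg and Mef2c by a test of the difference itself. For Esrrg the quadriceps change minus the soleus change was 1.45 (limma adjusted p = 0.00537), with 5 of 6 quadriceps cKO arrays above all quadriceps controls and the soleus groups overlapping. For Mef2c it was 0.41 (limma adjusted p = 0.0332), with overlapping groups in both muscles. Dixon's test for a single outlying sample marked 0 of the 36 sets of 6 values, and it can miss a pair of samples that lie apart together, such as quadriceps controls 1 and 6 for Esrrg.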

How the results depend on the processing

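The calls of Sox6 and Eya1 in both muscles, Rcan1 and Esrrg in quadriceps, Ppargc1a in soleus and the Esrrg difference between muscles were kept under every alternative run. The number of the 9 genes called stayed within 4 to 6 in quadriceps (5), 3 to 4 in soleus (4) and 5 to 7 between the control muscles (7) with each array left out in turn. For the difference between muscles (2), it was 1 with arrays centred on their median, 1 with their 75th percentile, 4 with array weights, 4 with number as a fixed replicate block, and 1 to 4 with an array left out. Between cKO muscles (3), it was 5 with that replicate block and 5 with only the arrays compared, and 2 to 3 with an array left out. For quadriceps cKO against soleus control (5), it was 3 with median centring and 3 to 5 with an array left out. The fixed replicate block also brought Nfatc1 in quadriceps under the threshold (limma adjusted p = 0.0458), as did age as covariate (0.0201), and fitting the quadriceps arrays alone did so for Ppargc1a (0.0146) and took the call from Mef2c (0.0772). Signs turned only for values that were not called in the main fit. With median centring the soleus change was 0.015 for Tead1 and 0.017 for Nfatc1, and Nfatc1 differed by 0.017 between cKO muscles and 0.034 between quadriceps cKO and soleus control. With an array left out these soleus changes ran from -0.054 to 0.018 for Tead1 and -0.053 to 0.018 for Nfatc1. Eya1 was -0.028 between control muscles with array weights, against 0.13 in the main fit. For quadriceps cKO against soleus control Mef2c was -0.13 with the 75th percentile, -0.023 after quantile normalization, -0.0042 with age as covariate and -0.030 to 0.021 with an array left out. The share of called genes that were higher moved with the scaling, from 55.7% in quadriceps to 37.5% (75th percentile), from 57.0% in soleus to 66.9% (median), from 60.2% for the difference to 45.6% (median) or 48.7% (75th percentile), and from 54.6% between control muscles to 77.7% (median) or 43.8% (75th percentile). It also moved from 58.7% between cKO muscles to 31.4% (75th percentile) or 76.0% (median), and from 52.0% for quadriceps cKO against soleus control to 29.8% (75th percentile) or 73.0% (median). Over all genes, 1966 were called for the difference, against 3570 with array weights and 2952 with animal as replicate block. Causes were not tested.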
